A study of Mus musculus with 12 samples.

Results

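The genes described here encode the parts of the receptors for calcitonin gene-related peptide (CGRP) and adrenomedullin. They are *Calcrl*, *Ramp1*, *Ramp2*, *Ramp3* and *Crcp*, chosen by name, and all 5 were found among the 26699 gene symbols counted. The samples came from explants of knee synovium of wild-type mice, labelled C57BL/6 (C57BL/6J in the study's methods), kept for 4 h in 100 nM CGRP or in vehicle. Macrophages that carry MHC class II were then sorted by CD11c, and their total RNA was sequenced in bulk. Cells without CD11c are called IAIE cells, after the sample titles, and cells with it CD11c cells. Each of the 4 groups had 3 libraries, 12 in all: IAIE control, IAIE CGRP, CD11c control and CD11c CGRP. The control titles read "Healthy" and their treatment label reads "Control". Mice of both sexes were used. The study's methods give an age range for in vivo experiments and name none for these explants, and the labels do not say whether libraries came from separate mice. The p-values therefore measure only the spread between these samples, which may be technical.

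CGRP is a peptide released by sensory pain fibres, and adrenomedullin is a related peptide made by vessels, macrophages and other cells. Both signal through the calcitonin receptor-like receptor, encoded by *Calcrl*, which reaches the cell surface only with a receptor activity-modifying protein (RAMP). The RAMP sets which peptide the receptor prefers: with RAMP1 it is the classical CGRP receptor, and with RAMP2 or RAMP3 it is an adrenomedullin receptor. The receptor couples to the Gs protein, which raises cyclic AMP. *Crcp* encodes a small intracellular protein described as a helper of the receptor and also as a subunit of RNA polymerase III.

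The RAMP transcripts moved apart under CGRP. *Ramp3* rose in both subsets, 2.13-fold in IAIE cells and 1.59-fold in CD11c cells. *Ramp1* fell 3.71-fold in CD11c cells, and in IAIE cells it was 2.31-fold lower without passing the test. *Calcrl* and *Crcp* stayed within the spread between replicates, and *Ramp2* lay near the floor of detection. The transcript of adrenomedullin itself, *Adm*, rose in both subsets.

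The upstream sequences of *Ramp1*, *Ramp3* and *Calcrl* are shown because the first pair moved in opposite directions under the same treatment while the third stayed within its spread. Each run holds the 250 bases before the gene start in RefSeq, 5′ to 3′ on the gene's own strand, on the build GRCm38.p6. *Ramp1* is at chr1:91179572-91179821 on the plus strand, *Ramp3* at chr11:6658283-6658532 on the plus strand and *Calcrl* at chr2:84425267-84425516 on the minus strand. Capitals mark the GC box letters GGGCGG on either strand.
Ramp1: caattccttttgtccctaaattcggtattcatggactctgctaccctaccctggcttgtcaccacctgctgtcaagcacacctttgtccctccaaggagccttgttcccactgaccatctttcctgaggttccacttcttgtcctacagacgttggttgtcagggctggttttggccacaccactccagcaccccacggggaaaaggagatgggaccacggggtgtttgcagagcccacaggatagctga
Ramp3: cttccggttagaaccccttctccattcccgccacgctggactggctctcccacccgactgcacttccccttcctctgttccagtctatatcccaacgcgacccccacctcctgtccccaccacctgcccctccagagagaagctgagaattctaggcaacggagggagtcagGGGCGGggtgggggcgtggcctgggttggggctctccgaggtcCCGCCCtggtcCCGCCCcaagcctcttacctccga
Calcrl: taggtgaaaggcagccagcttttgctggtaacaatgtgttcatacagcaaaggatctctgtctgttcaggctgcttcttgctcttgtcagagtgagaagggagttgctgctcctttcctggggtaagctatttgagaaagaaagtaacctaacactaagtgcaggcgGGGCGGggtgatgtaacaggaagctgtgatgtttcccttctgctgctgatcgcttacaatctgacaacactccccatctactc
The *Ramp3* sequence was the richest of the 3 in G and C at 65.2%, with 13 CpG pairs. *Ramp1* had 54% and 4 CpG pairs, and *Calcrl* had 48.4% and 3. The medians of all 32851 promoters in the RefSeq table were 52.4% and 6. The GC box occurred 3 times in the *Ramp3* window, once in that of *Calcrl* and not in that of *Ramp1*, and 32.7% of all promoters held it. In the GENCODE annotation, which places gene starts differently, 145 of the 250 bases of the *Calcrl* window lie inside the gene, its GC box among them, and so do 12 of the *Ramp3* window. None of the 3 windows held the cAMP-response half-site TGACG, which 17.8% of promoters held, or its full form TGACGTCA, held by 1.55% and always overlapping the half-site. None held the AP-1 motif TGANTCA (6.75% of promoters), the E-box CACGTG (6.02%), CCAAT (33.9%) or TATAAA (12.4%) on either strand. These are matches of letters in short windows and say nothing of which factors bind. *Ramp2* and *Crcp* had no entry in this table.

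Library totals ranged from 2127191 to 5649698 counts, and 3 counts, taken as the floor, corresponded to between 0.531 and 1.33 CPM. Totals were between 2127191 and 3310825 in IAIE control and 4009081 and 5364559 in IAIE CGRP libraries. In CD11c libraries they were between 2455650 and 4465508 without CGRP and 4329993 and 5649698 with it. Every IAIE control total thus lay below every IAIE CGRP total, while the totals of CD11c control and CGRP libraries overlapped. The part of depth in genes at 0 counts in control libraries was not tested. CPM here means counts scaled to a common library size by TMM, a correction for differences in library composition. The transcripts of both sort markers differed between the subsets. *Itgax*, which encodes CD11c, was at 6.19 ± 4.76 CPM in IAIE control and 237 ± 29.0 CPM in CD11c control libraries (mean ± SD, n = 3). With CGRP it was at 5.38 ± 3.94 and 115 ± 7.33 CPM, a fall of 1.03 on the log2 scale in CD11c cells (edgeR adjusted p 0.0288) that no longer passed without any 1 of the 6 CD11c libraries, with DESeq2 (adjusted p 0.325) or once 1 surrogate variable was added (adjusted p 0.0534). MHC class II was represented by *H2-Ab1*, which was at 3896 ± 387 and 10594 ± 886 CPM in IAIE and CD11c control libraries, and fell with CGRP to 2332 ± 243 and 6693 ± 508 CPM (by 0.74 and 0.66 on the log2 scale, edgeR adjusted p 3.16e-04 and 5.74e-04). The 9 macrophage markers, *Cd68* and *Csf1r* among them, summed to between 8630 and 11522 CPM in IAIE control, 9205 and 10117 CPM in IAIE CGRP, 8187 and 10550 CPM in CD11c control, and 6514 and 7770 CPM in CD11c CGRP libraries. In control libraries 7 of the 9 were lower in CD11c than in IAIE cells, against 10.9% of all genes (median log2 difference −1.28). Other cell types left traces that differed between libraries. The 9 fibroblast markers summed to between 359 and 1557 CPM in IAIE control and 570 and 2204 CPM in IAIE CGRP libraries. In CD11c libraries they summed to between 207 and 277 CPM without CGRP and 461 and 768 CPM with it. The 15 endothelial markers summed to between 23.5 and 61.9 CPM in IAIE libraries, while CD11c control replicate 1 reached 242 CPM against 38.8 and 38.6 CPM in the other CD11c control libraries.

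*Ramp1* encodes the RAMP of the CGRP receptor (chromosome 1, 91179822 to 91225196, plus strand). In IAIE control libraries it was at 7.76, 7.17 and 4.92 CPM, from 25, 25 and 11 counts. In IAIE CGRP libraries it was at 2.12, 3.64 and 2.83 CPM, from 8, 15 and 15 counts. In CD11c control libraries it was at 31.0, 15.4 and 24.5 CPM, from 76, 66 and 114 counts. In CD11c CGRP libraries it was at 9.40, 3.71 and 5.69 CPM, from 49, 15 and 32 counts. Every CGRP library lay below every control library of its subset, and the counts were low enough that single libraries spread widely.

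The fall of *Ramp1* in CD11c cells was −1.89 ± 0.39 on the log2 scale (estimate ± SE, 95% interval −2.72 to −1.06, edgeR adjusted p 0.00307). In IAIE cells the difference was −1.21 ± 0.44 (−2.14 to −0.28), which did not pass over all genes (edgeR adjusted p 0.103) and passed in no other fit. The interaction, the CGRP effect in CD11c cells minus that in IAIE cells, was −0.68 ± 0.60 (edgeR adjusted p 0.831), so the effects were not shown to differ. Averaged over both subsets, *Ramp1* was lower with CGRP by −1.55 ± 0.30 (edgeR adjusted p 8.38e-04). Of the 4 members tested, 1 passed in IAIE cells, upwards, as did 5.32% of the 11927 tested genes (9.21% in either direction). In CD11c cells 2 of 4 passed, 1 upwards and 1 downwards, against 6.29% and 4.59% of all genes (10.9% in either direction). None of the 4 passed the edgeR interaction test, adjusted or at an unadjusted p under 0.05, against 0.151% and 8.8% of all genes. Groups without overlap are common in these data: they were found for 24.9% of genes between IAIE control and CGRP libraries and for 29.2% in CD11c cells.

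*Ramp1* was also unequal between the subsets. Without CGRP it was 3.50-fold higher in CD11c than in IAIE cells (log2 difference 1.81 ± 0.41, edgeR adjusted p 0.00319). With CGRP the difference was 1.13 ± 0.43 (0.23 to 2.03), which did not pass (edgeR adjusted p 0.0836). Leaving out CD11c CGRP replicate 2, the library with the lowest *Ramp1* of its group, raised it to 1.38 and past the threshold (edgeR adjusted p 0.0451). Leaving out replicate 1, the highest, lowered it to 0.72. In control libraries 2 of the 4 members passed, both higher in CD11c cells, as were 10.2% of all genes. In CGRP libraries 1 of 4 passed, against 8.36% of all genes, while 3 of 4 had groups that did not overlap, against 34.8% (34.2% in control libraries).

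Dendritic cell markers moved beside *Ramp1*. The 9 markers summed to between 230 and 318 CPM in IAIE control, 171 and 198 CPM in IAIE CGRP, 942 and 979 CPM in CD11c control, and 798 and 909 CPM in CD11c CGRP libraries. Of 7 tested, 2 fell in IAIE cells, against 3.89% of all genes. In CD11c cells 4 fell, against 4.59%, among them *Cd209a* (−1.91, edgeR adjusted p 2.26e-06) and *Flt3* (−2.03, edgeR adjusted p 0.0169), and *Ccr7*, the chemokine receptor of migrating dendritic cells, rose (1.26, edgeR adjusted p 5.32e-05). The call for *Flt3* in CD11c cells ended without CD11c CGRP replicate 2 (edgeR adjusted p 0.0691). *Itgae* was at 0 in every CD11c control library, and no marker was at 0 throughout any other group. *Itgax* and *H2-Ab1* were also lower with CGRP in CD11c cells, and every CD11c CGRP library had a lower macrophage marker sum than every CD11c control library. The part of other cells, or of a shift in the sorted cells, in the *Ramp1* difference was not tested. In sorted bulk RNA, fewer cells of a type and less RNA per cell cannot be told apart.

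**Figure D1:**
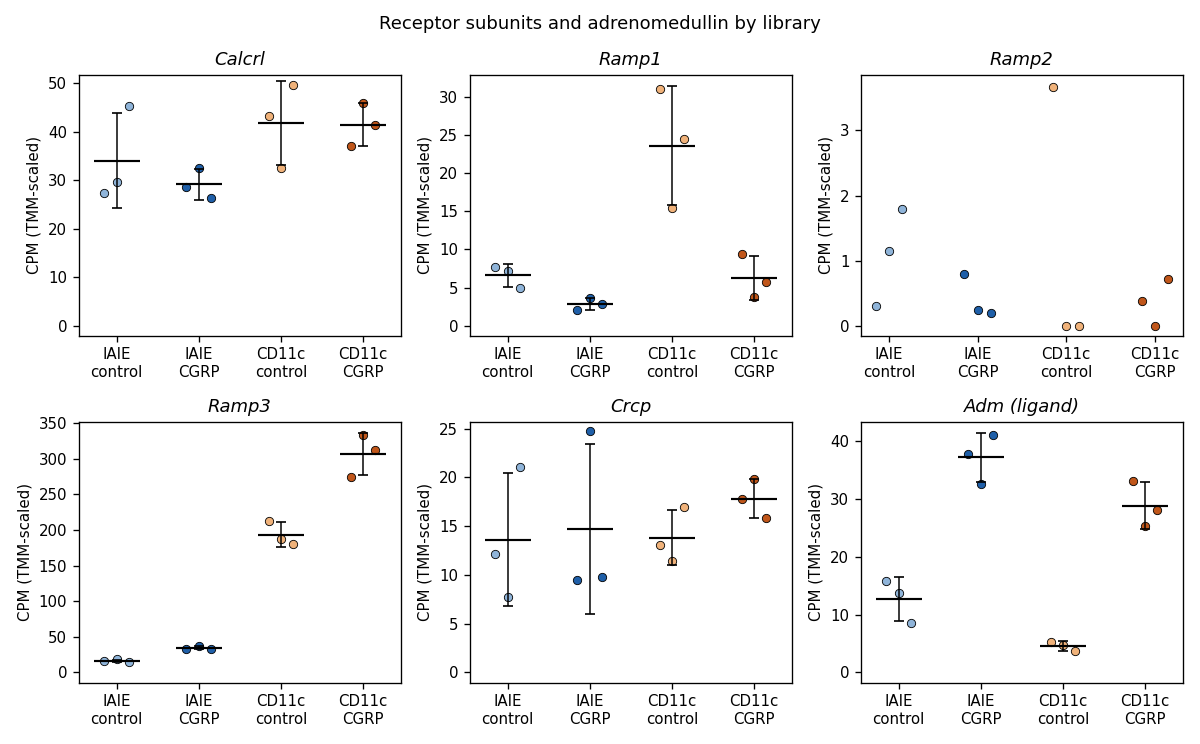
Level of each receptor gene and of *Adm*, which encodes the ligand adrenomedullin, in TMM-scaled CPM on the vertical axis of each panel, by group. Points are libraries, wide bars are means and whiskers are ± SD (n = 3); *Ramp2* has points only, since its counts were between 0 and 9. *Ramp3* is higher and *Ramp1* lower in every CGRP library than in every control library of the same subset.

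*Ramp3* encodes the RAMP of an adrenomedullin receptor (chromosome 11, 6658521 to 6677475, plus strand). In IAIE control libraries it was at 15.8, 18.3 and 14.3 CPM, from 51, 64 and 32 counts. In IAIE CGRP libraries it was at 33.6, 37.2 and 33.4 CPM, from 127, 153 and 177 counts. In CD11c control libraries it was at 213, 187 and 180 CPM, from 522, 801 and 841 counts. In CD11c CGRP libraries it was at 275, 333 and 312 CPM, from 1433, 1344 and 1755 counts. The 4 groups did not overlap at all, and *Ramp3* was the best counted of the RAMP genes.

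With CGRP, *Ramp3* rose by 1.09 ± 0.16 on the log2 scale in IAIE cells (0.75 to 1.43, edgeR adjusted p 2.08e-04). In CD11c cells it rose by 0.67 ± 0.13 (0.39 to 0.94, edgeR adjusted p 0.00187). The interaction was −0.42 ± 0.21 (edgeR adjusted p 0.578), so a larger rise in IAIE cells was not shown. The difference between the subsets was far larger than the CGRP effect. *Ramp3* was 11.8-fold higher in CD11c than in IAIE cells without CGRP (3.57 ± 0.16, edgeR adjusted p 5.73e-11) and 8.83-fold higher with it (3.14 ± 0.15, edgeR adjusted p 5.64e-11). All of these calls held in every alternative fit and with any library left out.

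Vascular markers were read beside *Ramp3*, since endothelial cells are known to express it. In CD11c CGRP libraries the endothelial markers summed to 166, 57.9 and 171 CPM, where *Ramp3* was at 275, 333 and 312 CPM. CD11c control replicate 1, with 242 CPM of endothelial markers, had 213 CPM of *Ramp3*, above the other 2 libraries of its group. Without that library, *Ramp3* rose by 0.73 in CD11c cells (edgeR adjusted p 0.00385). In IAIE cells the endothelial sums were 32.3, 23.5 and 28.2 CPM without CGRP and 61.9, 51.0 and 35.1 CPM with it. Without CGRP, 2 of 11 tested endothelial markers were higher in CD11c than in IAIE cells (10.2% of all genes) and none lower. With CGRP 2 were again higher (8.36% of all genes) and none lower. *Flt1* passed in both arms with any library left out, at 2.13 to 3.20 without CGRP and 2.24 to 3.82 with it. *Vwf* without CGRP passed in 11 and *Tek* with CGRP in 4 of the 12 leave-one-out fits. The *Vwf* call ended without CD11c control replicate 1 (0.97, edgeR adjusted p 0.301). Nor did *Vwf* pass with limma-voom (adjusted p 0.298), with 1 surrogate variable (edgeR adjusted p 0.159) or with replicate number as a block within treatment (edgeR adjusted p 0.0653). The part of vascular cells in the *Ramp3* differences was not tested.

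Single endothelial markers were low. *Pecam1* was at 8.54 ± 0.447, 10.9 ± 0.681, 16.7 ± 10.6 and 27.7 ± 18.2 CPM in IAIE control, IAIE CGRP, CD11c control and CD11c CGRP libraries. *Cdh5* was at 1.29 ± 0.350, 12.9 ± 6.50, 16.2 ± 25.5 and 25.9 ± 21.9 CPM in the same order, and *Kdr*, *Tie1* and *Tek* had group means of at most 3.44 CPM. Of 11 endothelial markers tested, 1 rose with CGRP in IAIE and 2 in CD11c cells, against 5.32% and 6.29% of all genes. *Esam* rose in both subsets (2.61 and 3.56, edgeR adjusted p 0.0324 and 0.00197). *Cldn5* rose in CD11c cells (edgeR adjusted p 0.0297), from 0 counts in all 3 CD11c control libraries. The call for *Esam* in IAIE cells ended when any of the 3 CGRP libraries, or control replicate 2 or 3, of that subset was left out, and that for *Cldn5* when any CD11c library but CGRP replicate 2 was left out. *Esam* in IAIE cells also did not pass with only the libraries compared or after thinning, nor did *Cldn5* with DESeq2 or limma-voom (adjusted p 0.152 and 0.150). *Emcn* was also at 0 throughout CD11c control, *Sox17* throughout IAIE control and *Plvap* throughout IAIE CGRP libraries. Markers of mural cells, which wrap vessels, summed to between 26.4 and 32.6 CPM in CD11c control and 55.7 and 360.0 CPM in CD11c CGRP libraries, and 5 of 6 tested rose, against 6.29% of all genes: *Myh11*, *Acta2*, *Notch3*, *Cspg4* and *Rgs5*. *Myh11*, a smooth muscle myosin, was at 205, 0 and 72.4 CPM in CD11c CGRP libraries, so the rise was not seen in all 3, and *Acta2* was likewise at 0 in replicate 2. With limma-voom neither passed (adjusted p 0.607 and 0.541), and the calls for *Notch3*, *Cspg4* and *Rgs5* each ended when CD11c control replicate 2 or 3 was left out. That for *Notch3* also ended without CD11c CGRP replicate 3, that for *Cspg4* without CD11c CGRP replicate 1 or 2, and that for *Rgs5* without CD11c CGRP replicate 3, CD11c control replicate 1 or IAIE control replicate 1.

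**Figure D2:**
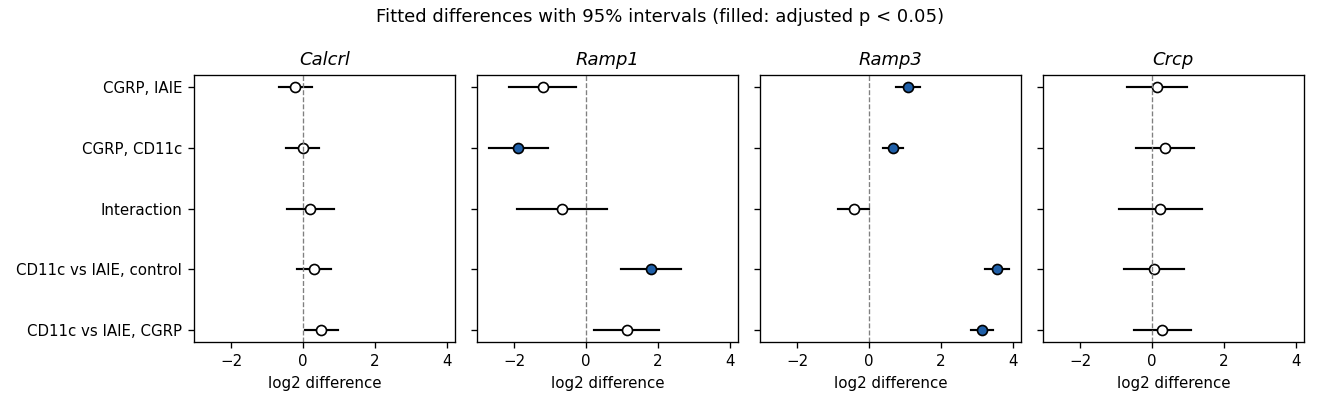
Fitted log2 differences (horizontal axis) of the 4 tested members in 5 comparisons, with 95% intervals from edgeR; filled points have an adjusted p under the threshold of 0.05. Only *Ramp3* is filled in both CGRP comparisons, at 1.09 and 0.67, and *Ramp1* lies on the other side of 0, at −1.21 and −1.89.

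*Calcrl* encodes the receptor itself (chromosome 2, 84330626 to 84425411, minus strand). It was at 27.3, 29.5 and 45.2 CPM in IAIE control and 28.6, 32.6 and 26.2 CPM in IAIE CGRP libraries. It was at 43.2, 32.5 and 49.6 CPM in CD11c control and 37.0, 45.8 and 41.5 CPM in CD11c CGRP libraries. Control and CGRP libraries overlapped in both subsets. The CGRP difference was −0.21 ± 0.23 in IAIE cells (−0.69 to 0.26, edgeR adjusted p 0.651) and −0.01 ± 0.22 in CD11c cells (−0.47 to 0.44, edgeR adjusted p 0.986). These intervals leave room for changes of up to about those bounds in either direction.

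Between the subsets, *Calcrl* was 0.31 ± 0.22 higher in CD11c cells without CGRP (edgeR adjusted p 0.378) and 0.51 ± 0.22 higher with it (edgeR adjusted p 0.131). Averaged over both treatments the difference was 0.41 ± 0.16 (0.08 to 0.74, edgeR adjusted p 0.0567), just outside the threshold. IAIE and CD11c libraries of the CGRP arm with the same replicate number were weakly correlated (r of 0.332, 0.128 and 0.205), which does not show that they were paired. With the number as a block within each treatment the average was 0.41 and passed (edgeR adjusted p 0.0354).

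*Crcp* (chromosome 5, 130029290 to 130060789, plus strand) was at 12.1, 7.74 and 21.0 CPM in IAIE control and 9.53, 24.8 and 9.81 CPM in IAIE CGRP libraries. It was at 13.1, 11.5 and 16.9 CPM in CD11c control and 17.8, 19.8 and 15.8 CPM in CD11c CGRP libraries. Single libraries of the IAIE groups spread more than any group differed. The CGRP difference was 0.13 ± 0.39 in IAIE cells (−0.69 to 0.96) and 0.36 ± 0.38 in CD11c cells (−0.44 to 1.16), with edgeR adjusted p of 0.894 and 0.661. Among 11 tested genes of RNA polymerase III, the other complex to which CRCP belongs, none passed with CGRP in either subset (median log2 differences 0.04 and −0.09). Of all genes, 9.21% passed in IAIE and 10.9% in CD11c cells, so none among 11 says little. In control libraries *Polr1c* and *Polr1d* were higher and *Polr3d* lower in CD11c cells, against 10.2% and 10.9% of all genes. These calls all ended when IAIE control replicate 2 was left out. The *Polr1c* call also ended without IAIE control replicate 3 or CD11c control replicate 3, and the *Polr3d* call without CD11c control replicate 1.

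*Ramp2* encodes the RAMP of the other adrenomedullin receptor (chromosome 11, 101246028 to 101259546, plus strand). Its counts were 1, 4 and 4 in IAIE control, 3, 1 and 1 in IAIE CGRP, 9, 0 and 0 in CD11c control, and 2, 0 and 4 in CD11c CGRP libraries. In 8 of 12 libraries it was at or under 3 counts, and the library with 9 counts was CD11c control replicate 1, the one with the most endothelial marker reads. It failed the filter on low counts and was not tested. With every gene of at least 1 count kept, the interval of its CGRP difference in IAIE cells ran from −4.32 to 1.75, and no edgeR adjusted p was under 0.582. At this depth neither a change of *Ramp2* nor its absence could be shown. Of the exon bases annotated to *Ramp2*, 33.4% are also annotated on the same strand to a transcript of *Vps25*, so its few reads may have been assigned to either gene. For *Ramp3*, 7.32% of exon bases overlap the antisense gene *Gm11978*, and the strand setting of the counting is not given in the sources used here.

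On a scale of CPM per kilobase of annotated exon, which allows genes to be compared, *Ramp3* stood first of the 5 genes in 11 of 12 libraries. *Crcp* stood first in IAIE control replicate 3. *Ramp2* stood last in all 12. In IAIE control libraries the means ran from *Ramp3* (11.7 ± 1.47 CPM per kilobase) through *Crcp* (8.60 ± 4.28), *Calcrl* (6.97 ± 2.00) and *Ramp1* (2.19 ± 0.494) to *Ramp2* (0.328 ± 0.225). *Crcp* overlapped both *Ramp3* and *Calcrl* there, while every *Ramp3* value lay above every *Calcrl* value. In CD11c control libraries *Ramp3* reached 140 ± 12.4 CPM per kilobase, while *Crcp* (8.72 ± 1.78), *Calcrl* (8.56 ± 1.77) and *Ramp1* (7.82 ± 2.59) did not differ beyond their spread. In CD11c CGRP libraries *Ramp3* was at 222 ± 21.3, *Crcp* at 11.2 ± 1.25, *Calcrl* at 8.48 ± 0.899 and *Ramp1* at 2.07 ± 0.955 CPM per kilobase. Such levels compare reads, and coverage along a transcript was not examined.

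The make-up of the RAMP transcripts shifted accordingly. Per kilobase of exon, *Ramp1* was 15.3% ± 2.63 of the RAMP signal in IAIE control and 3.59% ± 0.761 in IAIE CGRP libraries (SD, n = 3). In CD11c cells it was 5.22% ± 1.39 without CGRP and 0.956% ± 0.527 with it. *Ramp3* was 82.3% ± 0.991 and 95.9% ± 0.421 in IAIE, and 94.6% ± 1.65 and 99.0% ± 0.549 in CD11c libraries, without and with CGRP. In each subset the control and CGRP libraries did not overlap for either gene. The shares depend on the length used: without any length correction *Ramp1* was 27.6%, 7.48%, 10.7% and 2.06% in IAIE control, IAIE CGRP, CD11c control and CD11c CGRP libraries. With the longest principal transcript, an alternative chosen after seeing the data, it was 16.8%, 4.11%, 5.98% and 1.11%. *Ramp1* was lower in the CGRP group of each subset on all 3 scales.

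**Figure D3:**
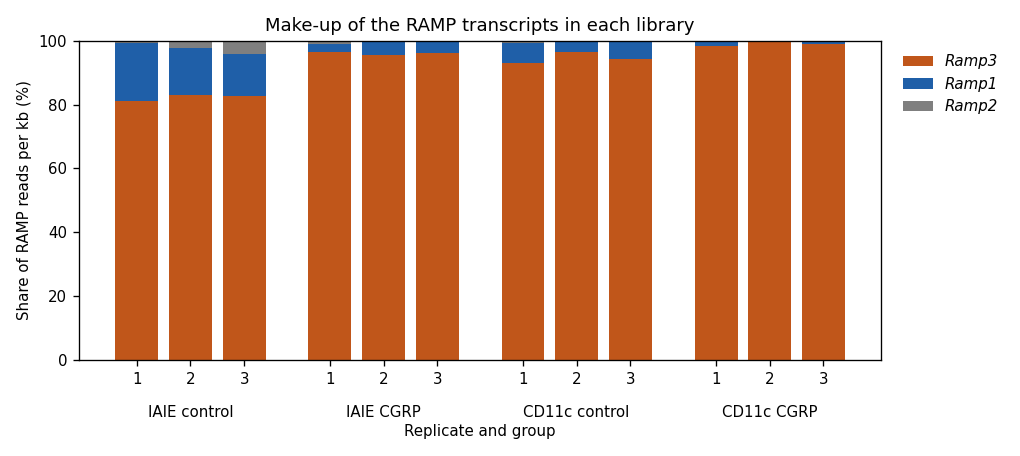
Share of the summed RAMP signal (reads per kilobase of exon, percent) from *Ramp3*, *Ramp1* and *Ramp2* in each of the 12 libraries. *Ramp3* takes at least 81.2% in every library, and the *Ramp1* share is smaller in each CGRP library than in each control library of the same subset.

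Ratios within a library do not depend on how libraries are scaled. There were between 2.02 and 2.83 *Ramp3* counts per *Ramp1* count in IAIE control libraries and between 9.90 and 15 in IAIE CGRP libraries. In CD11c cells the range went from 6.83 to 12.1 without CGRP and from 29.0 to 86.7 with it. Over both subsets CGRP raised the ratio 5.46-fold, by 2.45 on the log2 scale (2.29 in IAIE and 2.60 in CD11c cells). The 2-sided exact permutation test, with treatment labels exchanged within each subset over all 400 arrangements, gave p = 0.005, the smallest it can give, and 0.0075 adjusted over 6 tests. The ratio was also 3.87-fold higher in CD11c than in IAIE cells, with labels exchanged within each treatment (exact permutation p = 0.005, adjusted p 0.0075). These tests treat libraries of the 2 subsets as separate, while same-numbered libraries of the CGRP arm were weakly correlated and may have been paired. With same-numbered IAIE and CD11c libraries kept together, an alternative chosen after seeing the data, the exact permutation test of CGRP cannot go below p = 0.1, and each of the 3 ratios described here gave 0.1, so none passed. Between the subsets that exact permutation test can reach p = 0.03125 before adjustment, and the lowest adjusted p was 0.09375.

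Against the receptor, the RAMPs again parted. The ratio of *Ramp1* to *Calcrl* was 2.77-fold lower with CGRP (−1.47 on the log2 scale, exact permutation p = 0.01, adjusted p 0.012). It ranged from 0.113 to 0.288 *Ramp1* counts per *Calcrl* count in IAIE control and from 0.0783 to 0.115 in IAIE CGRP libraries, which overlapped. In CD11c cells it ranged from 0.477 to 0.718 without CGRP and from 0.0836 to 0.256 with it. The ratio of *Ramp3* to *Calcrl* was 1.97-fold higher with CGRP (0.98, exact permutation p = 0.005, adjusted p 0.0075). It ranged from 0.320 to 0.623 in IAIE control, 1.14 to 1.27 in IAIE CGRP, 3.63 to 5.75 in CD11c control and 7.25 to 7.52 in CD11c CGRP libraries, with no overlap. Against *Calcrl*, CD11c cells had 1.99-fold more *Ramp1* (exact permutation p = 0.02, adjusted p 0.02) and 7.70-fold more *Ramp3* (exact permutation p = 0.005, adjusted p 0.0075) than IAIE cells. Without CD11c control replicate 1 the first of these was 0.90 on the log2 scale, and its adjusted p was 0.05.

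**Figure D4:**
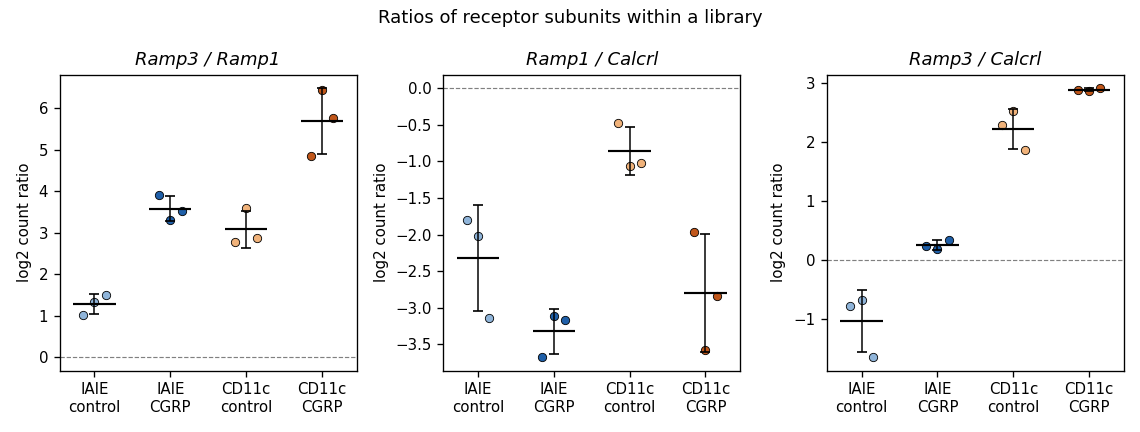
Log2 ratio of counts within each library, with 0.5 added to each count, for 3 pairs of receptor genes by group. Points are libraries, wide bars means and whiskers ± SD (n = 3). The *Ramp3* to *Ramp1* ratio has group means of 1.28 and 3.58 in IAIE cells and 3.08 and 5.68 in CD11c cells, without and with CGRP.

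Among the ligands of these receptors, *Adm* was the one that passed the test. It was at 15.8, 13.8 and 8.51 CPM in IAIE control and 37.8, 32.6 and 41.1 CPM in IAIE CGRP libraries. In CD11c cells it was at 5.30, 4.68 and 3.65 CPM without CGRP and 33.2, 25.2 and 28.1 CPM with it. Control and CGRP libraries were well apart in both subsets. *Adm* rose by 1.53 ± 0.26 in IAIE cells (edgeR adjusted p 6.97e-04) and by 2.69 ± 0.29 in CD11c cells (edgeR adjusted p 5.05e-06). The interaction was 1.16 ± 0.39 (edgeR adjusted p 0.334). Without CGRP, *Adm* was lower in CD11c than in IAIE cells by −1.52 ± 0.30 (edgeR adjusted p 0.00111), the reverse of *Ramp3*, and with CGRP the difference was −0.36 ± 0.24 (edgeR adjusted p 0.369).

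Of the 8 ligand and related receptor genes listed, 5 were in the files and 3 were tested. *Adm* alone of the 3 passed with CGRP in each subset, upwards, as did 5.32% of all genes in IAIE and 6.29% in CD11c cells. *Calca*, the gene of CGRP itself, ranged from 0 to 20 counts, with group means between 0.932 and 3.23 CPM and no difference past the threshold. *Calcb*, which encodes the second form of CGRP, was at 0 in all IAIE libraries and averaged 1.25 ± 1.39 CPM in CD11c control libraries and 1.95 ± 1.45 CPM in CD11c CGRP libraries. *Ackr3*, a scavenger receptor that also binds adrenomedullin, was at 0.544 ± 0.942 CPM in CD11c control and 3.58 ± 2.22 CPM in CD11c CGRP libraries (3.04 ± 1.20, edgeR adjusted p 0.123). *Gpr182*, a related receptor of endothelium, had at most 14 counts and was not tested. *Adm2*, *Iapp* and *Calcr* were not analysed here.

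Enzymes that cut these peptides were read next. Of 5 tested, none passed in IAIE cells, against 9.21% of all genes, and 1 fell in CD11c cells, against 4.59%. The latter was *Dpp4*, a surface dipeptidase also counted among the dendritic cell markers. *Dpp4* was at 16.7, 31.1 and 25.5 CPM in CD11c control and 7.29, 6.93 and 3.38 CPM in CD11c CGRP libraries (−2.07 ± 0.44, edgeR adjusted p 0.00322). A difference from IAIE cells was not shown (interaction −2.05 ± 0.69, edgeR adjusted p 0.338). *Ece1*, endothelin-converting enzyme 1, which degrades internalised CGRP in endosomes, was higher in CD11c than in IAIE cells without CGRP (168 ± 17.9 against 82.3 ± 15.4 CPM, 1.03 ± 0.19, edgeR adjusted p 5.36e-04) and with it (1.57 ± 0.19, edgeR adjusted p 6.79e-06).

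Of 21 tested genes for G proteins, receptor kinases, arrestins and trafficking, 2 rose and 1 fell in IAIE cells, against 5.32% and 3.89% of all genes. None of the 21 passed in CD11c cells, against 10.9%. The medians of 0.08 and 0.09 lay near those of all tested genes, −0.02 and 0.00. *Grk3*, a kinase that phosphorylates active receptors, fell in IAIE cells from 19.2, 14.6 and 25.5 CPM to 6.62, 7.77 and 5.28 CPM (−1.58 ± 0.26, edgeR adjusted p 4.99e-04). In CD11c cells it was at 60.6 ± 10.7 and 50.8 ± 4.13 CPM (−0.26 ± 0.21, edgeR adjusted p 0.539); for the interaction of 1.32 ± 0.33 it was 0.149. *Nherf1*, a scaffold that binds the tail of RAMP3, rose in IAIE cells from 115 ± 12.8 to 168 ± 22.1 CPM (0.56 ± 0.15, edgeR adjusted p 0.0198). *Gng5*, a G protein gamma subunit, rose there as well (0.62 ± 0.18, edgeR adjusted p 0.0299). Leaving out IAIE control replicate 1, IAIE CGRP replicate 1 or IAIE CGRP replicate 3 ended the call for *Nherf1*, at edgeR adjusted p of 0.0882, 0.0824 and 0.0577. For *Gng5* it ended without IAIE control replicate 1, IAIE control replicate 3 or IAIE CGRP replicate 2, at edgeR adjusted p of 0.0501, 0.101 and 0.158. Between the subsets, 3 of the 21 were higher and 3 lower in CD11c cells without CGRP, against 10.2% and 10.9% of all genes. *Grk3* (1.64) and *Nsf* (0.99) were higher, and the gamma subunit genes *Gng12* (−1.26) and *Gng2* (−1.02) lower, and all 4 passed with any library left out. *Rab7* was lower by 0.44, a call that ended without CD11c control replicate 3, and *Gng5* passed in 4 of the 12 leave-one-out fits.

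Downstream, 23 genes of the cyclic AMP pathway were tested. In IAIE cells 1 fell, against 3.89% of all genes, and in CD11c cells 1 rose and 1 fell, against 6.29% and 4.59%. The medians of the 23 genes were 0.04 and 0.01. *Adcy7*, an adenylyl cyclase of blood cells, fell in both subsets, by 0.95 on the log2 scale in IAIE and by 0.74 in CD11c cells (edgeR adjusted p 0.00260 and 0.0154). It was at 123, 111 and 131 CPM in IAIE control, 75.4, 64.9 and 48.8 CPM in IAIE CGRP, 83.6, 82.5 and 92.3 CPM in CD11c control, and between 39.0 and 66.4 CPM in the 3 CD11c CGRP libraries. *Adcy6*, another adenylyl cyclase, rose in CD11c cells from 5.71, 17.8 and 9.23 CPM to 26.3, 27.7 and 45.9 CPM (1.58 ± 0.41, edgeR adjusted p 0.0157). In IAIE cells *Adcy6* was at 2.82 ± 1.45 and 1.96 ± 0.814 CPM, and the test of the interaction was not passed (2.02 ± 0.70, edgeR adjusted p 0.363). In CD11c cells the call for *Adcy7* ended without control replicate 3, CGRP replicate 2 or CGRP replicate 3 (edgeR adjusted p 0.0561, 0.0554 and 0.0831). That for *Adcy6* ended without control replicate 1, control replicate 3 or CGRP replicate 3 (edgeR adjusted p 0.0686, 0.0798 and 0.136). Between the subsets, 5 of the 23 were higher and 1 lower in CD11c cells without CGRP, against 10.2% and 10.9% of all genes. *Prkar2a*, a regulatory subunit of protein kinase A (1.896), *Adcy6* (2.01) and *Crem*, a cyclic AMP-responsive transcription factor (0.997), passed with any library left out. With limma-voom *Adcy6* did not pass (adjusted p 0.0722). The phosphodiesterase gene *Pde3b* (0.57) did not pass without IAIE control replicate 1, *Pde4b* (0.45) did not pass without IAIE control replicate 3 or CD11c control replicate 1, and *Pde8a* (−0.47) passed in none of those 12 fits.

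Other receptors that raise cyclic AMP, or that bind other neuropeptides, gave a background for the RAMP genes. Of 25 in the files, 9 were tested. With CGRP, 1 of the 9 was lower in IAIE cells, against 3.89% of all genes, and none passed in CD11c cells, against 10.9%. The lower gene was *Ptger4*, a prostaglandin E2 receptor (−0.62 ± 0.19, edgeR adjusted p 0.0456). Its call ended without any of 10 of the 12 libraries. Between the subsets, 4 of 9 were higher in CD11c cells without CGRP and none lower, against 10.2% and 10.9% of all genes. *Adora2a*, a receptor for adenosine, was at 8.22 ± 0.947 CPM in IAIE control and 43.6 ± 8.19 CPM in CD11c control libraries (2.41 ± 0.26, edgeR adjusted p 1.91e-06). *Ptgir*, the prostacyclin receptor, was also higher (1.09 ± 0.23, edgeR adjusted p 0.00208), as were *Ptger2* (1.28 ± 0.35, edgeR adjusted p 0.0134) and the proton sensor *Gpr65* (1.04 ± 0.33, edgeR adjusted p 0.0288). Without IAIE control replicate 1 neither *Ptger2* nor *Gpr65* passed. The *Ptger2* call also ended without CD11c control replicate 2, and the *Gpr65* call without IAIE control replicate 3, CD11c control replicate 1 or CD11c control replicate 2. The median of the 9 was 1.04 without CGRP, against −0.02 over all tested genes.

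**Figure D5:**
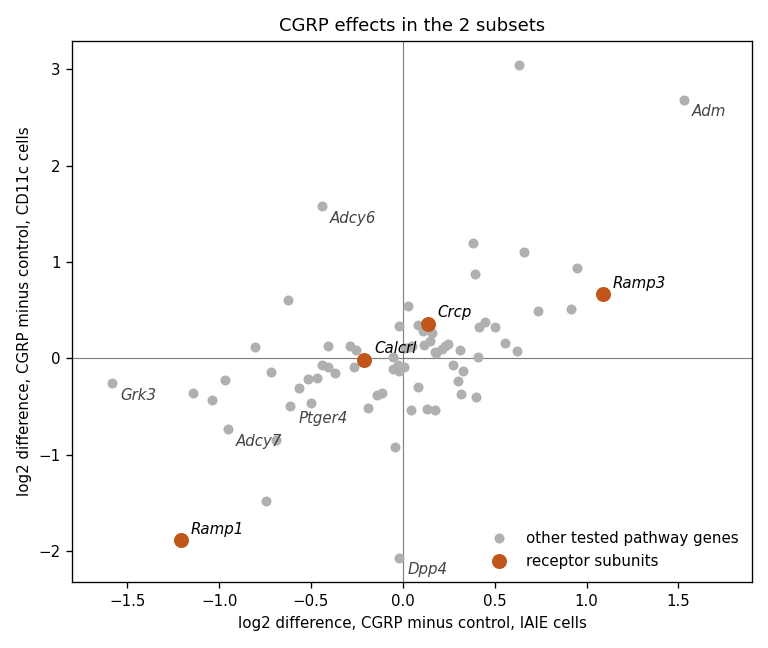
CGRP effect (log2 difference, CGRP minus control) in IAIE cells on the horizontal axis and in CD11c cells on the vertical axis, for the 4 tested members (large points) and the other tested genes of the receptor, coupling, cyclic AMP, peptide breakdown and RNA polymerase III lists (small points). *Ramp3* and *Adm* lie at the upper right, at 1.09 and 0.67 and at 1.53 and 2.69, and *Ramp1* at the lower left, at −1.21 and −1.89.

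The genes whose pattern over the 12 libraries was most like each member were found by Pearson's r of log2(CPM + 1). The ranking took in 8461 tested genes whose mean reached 5 CPM, with predicted genes (Gm and Rik symbols) left out. The 12 libraries share their subset and treatment, so these values describe a common pattern and carry no p. For *Ramp1* the leading genes were *Naaa* (r = 0.959), *Ckb* (0.953) and *Anxa1* (0.952). For *Ramp3* they were *Rap2a* (0.989), *Mmp25* (0.985) and *Rbpj* (0.985). *Ckb*, which encodes brain-type creatine kinase, had group means of 56.8, 21.8, 160 and 49.97 CPM in IAIE control, IAIE CGRP, CD11c control and CD11c CGRP libraries. *Mmp25*, a membrane-bound metalloproteinase, had 8.42, 15.5, 93.6 and 165 CPM. For *Calcrl* the leading genes were *Anapc11* (0.843), *Trit1* (0.837) and *Sdhb* (0.834), and for *Crcp* they were *Cisd2* (0.879), *Zfp764* (0.872) and *Lnpep* (0.844). The members were less alike among themselves: r was 0.438 between *Ramp1* and *Ramp3*, 0.448 between *Ramp1* and *Calcrl*, and 0.584 between *Ramp3* and *Calcrl*.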

How the data were processed

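Libraries were made from 5 ng of total RNA with the SMARTer stranded pico input kit. According to the study's methods and the submitters' processing notes, the authors trimmed reads with Trim Galore, used HISAT2 to align them to mm10, and obtained counts for each symbol from featureCounts; versions, annotation and strand setting are not given in the sources used here. The deposited values are raw counts per gene, not normalised. The combined table repeats them (0 values differ), and 6 further columns that no label maps were not used. Floors cover counting error only, as no molecular identifiers were counted.

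From these counts, all 12 libraries entered 1 fit with a mean per group: edgeR 4.0.16 in R 4.3.3, filterByExpr by group (minimum count 10, minimum total 15), TMM scaling, quasi-likelihood test with 95% intervals that include the spread between libraries, and Benjamini-Hochberg adjustment over 11927 genes, with a threshold of 0.05. The script was tested on simulated data. Log2 count ratios (0.5 added) were compared by 2-sided exact permutation tests in Python 3.11.15 with scipy 1.17.1. Gene positions and exon lengths are from GENCODE M21 on GRCm38, and upstream sequences are from RefSeq.

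Alternatives were other scalings and filters, DESeq2 1.42.0, limma-voom 3.58.1, 1 surrogate variable (sva 3.50.0), a replicate block, only the libraries compared, thinning to the lowest library total and leaving out each library. Replicate numbers were checked by the correlation of same-numbered libraries' deviations from their group means over 5411 genes. It was over 0.1 for every pair of IAIE and CD11c CGRP libraries (0.332, 0.128 and 0.205), and not for every pair of any other comparison. Differently numbered libraries were not compared, so pairing was not shown. The main fit and the main permutation tests used no pairing. Replicate numbers entered only alternative fits and the alternative permutation. Those also paired IAIE and CD11c control libraries, whose correlations were 0.0966, 0.0195 and 0.0255.

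Members and lists were chosen with earlier results of these data known. The rule for named genes took the 5 members, the ligand list, up to 4 genes past the threshold per list, comparison and direction (given here for part of the marker lists and subset comparisons), the sort markers, the first 5 endothelial markers and the 3 most alike genes per member; further marker genes were chosen after their values were seen.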

Additional observations from a re-analysis of the deposited data

Results flagged for a closer look

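The CGRP effect on *Dcn*, which encodes the fibroblast proteoglycan decorin, differed between the subsets, with an interaction of 6.96 ± 1.10 on the log2 scale (edgeR adjusted p 0.00898). *Dcn* was at 34.1 ± 11.9 and 8.23 ± 8.30 CPM in IAIE control and CGRP libraries and at 1.93 ± 0.522 and 56.1 ± 49.0 CPM in CD11c control and CGRP libraries. With limma-voom the interaction did not pass (adjusted p 0.342), nor did it without CD11c control replicate 2 or 3 (edgeR adjusted p 0.0505 and 0.0571). *Dcn* was 1 of 7 fibroblast markers tested and the only 1 past the interaction test, against 0.151% of all genes. In IAIE cells 1 of the 7 rose with CGRP and 3 fell, against 5.32% and 3.89% of all genes. In CD11c cells 3 rose and none fell, against 6.29% and 4.59%. The sum of all 9 markers was 790 ± 666 CPM in IAIE control and 1152 ± 913 CPM in IAIE CGRP libraries, which overlapped. The part of fibroblasts in any receptor value was not tested.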

How the results depend on the processing

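Over 10 other fits, another pseudocount for the ratios and 12 fits that each left out 1 library, the rise of *Ramp3* in both subsets, its difference between subsets, the fall of *Ramp1* in CD11c cells, the higher *Ramp1* of CD11c cells without CGRP, and, with the labels exchanged within each subset, the CGRP effects on the 3 ratios kept their direction and stayed past the threshold. With the replicate block in the permutation, added after seeing the data, no ratio passed: the design allows no p under 0.1 for CGRP (*Ramp3* to *Ramp1* 2.45, *Ramp1* to *Calcrl* −1.47, *Ramp3* to *Calcrl* 0.98), and between subsets (1.95, 0.99 and 2.95 in the same order) the lowest adjusted p was 0.09375. The *Ramp1* difference in IAIE cells passed in none (adjusted p from 0.0679 to 0.296). In all, 643 values for the members, their ratios and their interactions kept direction and call. Another 19 changed direction, 7 lost their call and 7 gained one. *Calcrl* between subsets, averaged over treatments, passed with every gene of at least 1 count (0.45), with the replicate block within treatment (0.41) and with DESeq2 (0.41). With 1 library left out that difference ranged from 0.35 to 0.53 and passed in 3 of 12 fits (edgeR adjusted p from 0.0145 to 0.130). *Calcrl* with CGRP in CD11c cells changed sign with 1 surrogate variable (0.029) and after thinning (0.041), and *Crcp* between subsets in control libraries after thinning (−0.018). The cause was not tested.

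With 1 library left out, *Calcrl* with CGRP ranged from −0.34 to 0.057 in IAIE cells, from −0.21 to 0.11 in CD11c cells and from −0.20 to 0.018 averaged, and its interaction from −0.078 to 0.33. *Crcp* with CGRP ranged from −0.46 to 0.59 in IAIE cells and from −0.049 to 0.47 averaged, its interaction from −0.24 to 0.82, and its subset difference in control libraries from −0.23 to 0.50. *Ramp1* between subsets with CGRP ranged from 0.72 to 1.38, and the subset difference of the *Ramp1* to *Calcrl* ratio from 0.79 to 1.19. The number of genes past the interaction test was 18, and 171 with every gene of at least 1 count, 36 with the replicate block, 52 with the block within treatment, 97 with DESeq2 and 2 with limma-voom. With the replicate block over all libraries, *Ramp1* fell in CD11c cells by 1.92 and *Ramp3* rose by 0.66, and it changed no call of a member. Counts of 0 to 9 set the limit for *Ramp2*, and *Ramp1* rested on 8 to 25 counts in IAIE libraries.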
